A study of Mus musculus with 9 samples.

Results

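Prostaglandin synthesis and receptor genes were followed in FVB MOE cells, a monoclonal line of secretory epithelial cells from the oviduct of FVB mice. The genes were 10 members chosen by name: *Pla2g4a*, *Ptgs1*, *Ptgs2*, *Ptges*, *Ptges2*, *Ptgis*, *Ptger2*, *Ptger4*, *Ptgfr* and *Hpgd*. Each stood in 1 of the 23332 gene rows. All cells were hormone starved for 48 h in medium with charcoal stripped serum and then received, over 24 h, either the solvent DMSO (0.1%), 1 nM 17β-estradiol (E2), the main ovarian estrogen, or 100 nM 4-hydroxytamoxifen (4OHT), an active metabolite of tamoxifen that binds the estrogen receptor. Each condition had 3 samples, numbered 1 to 3 in the labels. The labels do not say whether these were separate cultures, so that p-values measure the spread between the samples, which may be technical.

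Prostaglandins are short-lived lipid signals made from arachidonic acid. A phospholipase A2 frees arachidonic acid from the membrane, a cyclooxygenase turns it into prostaglandin H2, and terminal synthases turn that into prostaglandin E2, prostacyclin and other products. These act on receptors of the secreting cell or its neighbours and are broken down in the cytoplasm after uptake. In the oviduct prostaglandins are known for their part in muscle tone and the transport of the egg.

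Expression is given as the FPKM that the authors deposited, that is, fragment numbers divided by transcript length and by library size. How library size was taken is not given in the sources used here. Library sums of FPKM lay between 522517 and 588640, and 11037 to 11175 rows reached 1 FPKM in each library. Of the secretory cell markers examined, 7 of 9 had a mean of at least 1 FPKM in each condition, among them *Pax8*, whereas *Epcam* and *Cdh1*, both general epithelial markers, were below 0.5 FPKM in every sample. As a check of the treatment, the log2 fold change of *Pgr*, the progesterone receptor and a known target of E2, was 2.70 over DMSO. Its adjusted p was 0.173, and 0.000214 with the replicate number as a block, that is, in a fit that compares samples of the same number with each other. *Greb1*, also a known target, had 2.00 (adjusted p 0.318, and 0.000742 with the block), and *Esr1*, the estrogen receptor α gene, had 0.45 (adjusted p 0.680, and 0.000973 with the block). A gene is called higher or lower where its adjusted p was under 0.05.

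Of the 10 members, 5 reached 1 FPKM in 3 or more samples and entered the test. None of these had an exact 0 in any sample. In DMSO the cyclooxygenase *Ptgs1* had the highest level, 97.0 ± 32.6 FPKM (SD, n = 3), followed by the prostaglandin E synthase *Ptges2* with 19.8 ± 1.37 FPKM, the phospholipase *Pla2g4a* with 12.2 ± 2.50 FPKM, the prostaglandin E2 receptor *Ptger4* with 9.01 ± 3.78 FPKM and the second cyclooxygenase *Ptgs2* with 4.62 ± 1.43 FPKM. The ranges of *Pla2g4a* and *Ptger4* overlapped in DMSO, and those of the other neighbours in this order did not. With E2, *Ptger4* stood at 18.6 ± 5.30 FPKM, beside *Ptges2* at 18.3 ± 0.278 FPKM, and the ranges of these genes overlapped. With 4OHT, *Ptger4* was at 6.80 ± 1.48 FPKM and its lowest sample lay below the highest of *Ptgs2*.

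**Figure D1:**
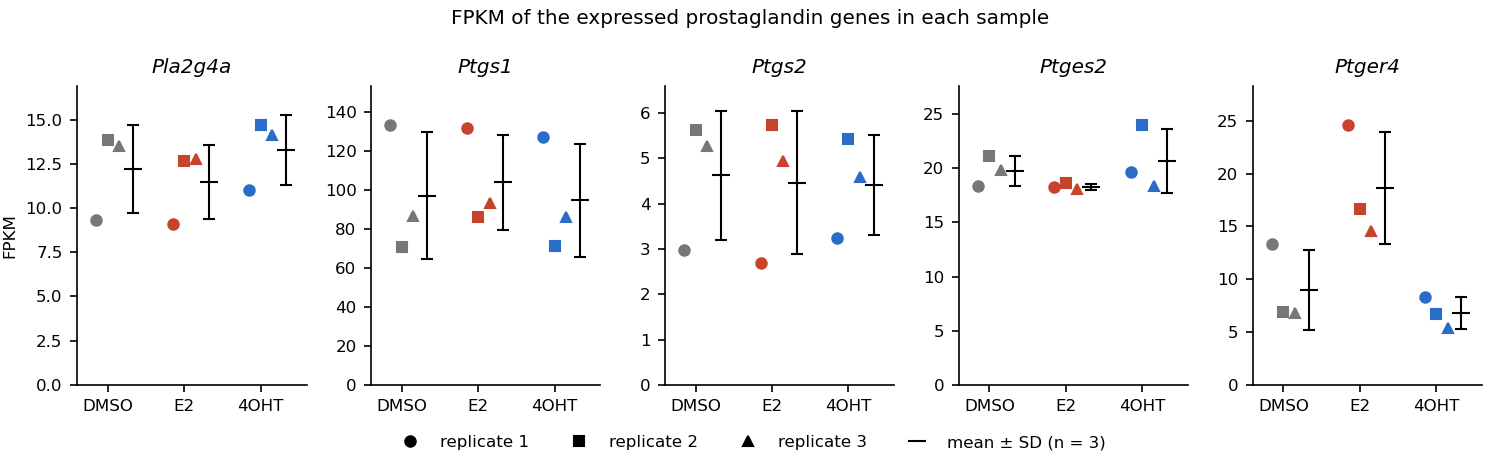
FPKM (vertical axis, from 0, with its own scale in each panel) of the 5 expressed members in each DMSO, E2 and 4OHT sample. Symbols stand for the replicate numbers and bars for the mean ± SD of 3 samples. The 3 E2 samples lie above all DMSO and 4OHT samples for *Ptger4*, whereas *Ptgs1* and *Ptgs2* are arranged by replicate number in all 3 conditions.

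The other 5 members were at or near 0. *Ptges*, the inducible microsomal prostaglandin E synthase, ranged from 0.0192 to 0.0778 FPKM, which corresponds to about 3 to 12 reads per library, estimated from the FPKM worth of 1 read and the longest annotated transcript. *Ptgfr*, the receptor of prostaglandin F2α, was listed at 0 in all 3 E2 samples and in 1 4OHT sample, and at 0.00341 to 0.00872 FPKM in the other 5 samples. Those values stand for about 1 or 2 reads. A floor of 3 reads lies between 0.00923 and 0.0133 FPKM for *Ptgfr*, so that no difference between conditions was detectable at this depth. *Ptgis*, the prostacyclin synthase, was above 0 in 2 libraries, and the highest value was 0.0179 FPKM, under its floor of 0.0290 to 0.0418 FPKM. *Ptger2*, like *Ptger4* a receptor of prostaglandin E2 that raises cAMP, was above 0 in 1 library, DMSO sample 1, with 0.00701 FPKM and a floor of 0.0166 to 0.0239 FPKM. *Hpgd*, which encodes the enzyme that inactivates prostaglandin E2 and F2α, was listed at 0 in all 9 samples, with a floor of 0.0363 to 0.0523 FPKM. Whether this row had no reads or was not quantified cannot be told from the listed values. The read estimates are approximate and cover counting error only.

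*Ptger4* was the member with the largest difference between conditions. It encodes the receptor EP4, which couples to Gs and raises cAMP on binding prostaglandin E2. In GRCm38 (mm10) it lies at chr15:5206661-5244187 on the minus strand. The DMSO samples 1, 2 and 3 had 13.4, 6.87 and 6.78 FPKM. The E2 samples had 24.6, 16.7 and 14.5 FPKM. The 4OHT samples had 8.34, 6.67 and 5.40 FPKM. Every E2 sample was above every DMSO and 4OHT sample, and the DMSO and 4OHT ranges overlapped. Within each condition, sample 1 was the highest. E2 over DMSO, taken within a replicate number, was 1.84, 2.43 and 2.14 for numbers 1, 2 and 3, and E2 over 4OHT was 2.95, 2.50 and 2.69. About 803 to 3224 reads per library stood behind these values.

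The promoter window of *Ptger4* is shown because this was the expressed member that differed most with E2. The sequence is from RefSeq (GRCm38.p6), chr15:5244138-5244437, minus strand, and covers the 250 bases before and the 50 bases after the annotated start. Capitals mark matches to the GC box GGGCGG on either strand, the motif bound by Sp1 family factors.
*Ptger4*: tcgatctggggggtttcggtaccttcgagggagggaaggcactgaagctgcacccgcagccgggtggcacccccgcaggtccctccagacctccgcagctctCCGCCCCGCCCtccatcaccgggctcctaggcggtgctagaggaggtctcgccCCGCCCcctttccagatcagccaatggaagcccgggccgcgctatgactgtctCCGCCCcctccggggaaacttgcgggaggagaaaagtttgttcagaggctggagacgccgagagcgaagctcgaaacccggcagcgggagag
It held 4 such matches, at 148, 143, 95 and 42 bases before the start, all on the opposite strand, and the first 2 of these overlap. A GC box was present in 35.66% of the 32851 RefSeq promoter windows of this length. The window held no estrogen response element, searched as GGTCA and TGACC parted by 3 bases and present in 0.07% of all windows, no cAMP response element TGACGTCA (1.79%), no AP-1 site TGANTCA (7.81%), no kappa B site GGACTTTCC (0.34%), no TATAAA (13.62%) and no E-box CACGTG (7.15%). GC content was 67.0%, against a median of 52.7% over all windows. These are matches of letters and not evidence of binding.

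In the fit without the replicate number, the log2 fold change of *Ptger4* between E2 and DMSO was 1.00 with an SE of 0.27 and an adjusted p of 0.230 (limma on log2(FPKM + 1), Benjamini-Hochberg adjustment over all rows tested). With the replicate number as a block, the SE was 0.09 and the adjusted p 0.000398, with a 95% interval from 0.79 to 1.21. *Ptger4* thus passed the threshold with the block and not without it. It was called in all 7 fits with the block, with adjusted p-values of 0.000398 to 0.0138. Without the block it was called once all samples numbered 1 were left out, with 1.08 on the log2 scale and an adjusted p of 0.0118. Leaving out single samples without the block gave log2 fold changes of 0.79 to 1.29 and no call.

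Of the 5 members tested, 0 were called between E2 and DMSO without the block, where 0.583% of all rows tested were called. At an unadjusted p under 0.05 it was 1 member, *Ptger4*, beside 11% of all rows. With the block 1 of 5 was called, beside 18.6% of all rows and 12.1% in the higher direction, and the same member alone had an unadjusted p under 0.05, beside 34.3% of all rows. Since that background is high, the call of *Ptger4* is 1 among 2105, and its log2 fold change of 1.00 stands beside a median of -0.00 over all rows tested.

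Some marker genes moved with E2 as well. The summed FPKM of the secretory markers was 1441 to 1585 in DMSO, 2363 to 2590 with E2 and 1517 to 1700 with 4OHT. Most of these sums came from keratins. *Krt7*, a keratin of simple epithelia, had a mean of 310 FPKM in DMSO and 816 FPKM with E2. The means of *Krt8*, *Krt18* and *Krt19* were 406, 496 and 144 FPKM in DMSO and 548, 710 and 205 FPKM with E2. In DMSO and E2, *Pax8* had 119 and 133 FPKM, *Wt1* 33.1 and 32.6 FPKM and *Ovgp1* 2.24 and 1.65 FPKM. The summed stromal and smooth muscle markers, of which 3 of 9 had a mean of at least 1 FPKM, were at 940 to 1421 FPKM in DMSO, 1314 to 1735 FPKM with E2 and 1253 to 1524 FPKM with 4OHT. *Acta2*, smooth muscle actin, made up nearly all of these sums, at 932 to 1414 FPKM in DMSO. The mean of the collagen gene *Col1a1* was 3.83 FPKM in DMSO and 3.30 FPKM with E2. The remaining expressed gene of this list was *Dcn*, which encodes decorin. Its means were 2.31 FPKM in DMSO, 13.0 FPKM with E2 and 3.04 FPKM with 4OHT. In the ciliated list all 4 genes that had a row were detected, with sums of 423 to 550 FPKM in DMSO and 413 to 441 FPKM with E2. *Tubb4b*, a tubulin gene, made up nearly all of these sums, at 405 to 530 FPKM in DMSO and 395 to 424 FPKM with E2. *Foxj1* was at 13.6 to 15.9 FPKM in DMSO and 8.95 to 13.0 FPKM with E2. *Rsph1* went the other way, from 2.98 to 3.21 FPKM in DMSO and 3.52 to 3.86 FPKM with E2. With the block 1 gene of this list was called higher and 1 lower between E2 and DMSO, 50% of the 4 tested beside 18.6% of all rows. In the secretory list 5 of 7 tested genes were called higher and 0 lower with the block, 71.4%. Without the block 1 of them was called higher, beside 0.583% of all rows. In the stromal list 2 of 3 tested genes were called higher with the block, and in the endothelial list 1 of 1. The endothelial markers summed to at most 0.857 FPKM in DMSO and 1.43 FPKM with E2. Most of this was *Kdr*, with means of 0.599 and 1.17 FPKM, and the other 4 genes were below 0.5 FPKM in every sample. The part of these shifts in the *Ptger4* result was not tested. In bulk RNA a change in the number of cells of a kind cannot be told apart from a change in RNA per cell.

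*Ptger4* overlaps *Ttc33*, which lies on the other strand. The libraries were directional, but the strand setting of the authors' quantification is not given in the sources used here, so that reads of the overlapping stretch may be shared. *Ttc33* was between 8.57 and 10.8 FPKM in the 9 samples. Its log2 fold change between E2 and DMSO was -0.06, with an adjusted p of 0.481 with the block, and between E2 and 4OHT it was -0.10, with 0.232.

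E2 and 4OHT differed in the same gene. The log2 fold change of *Ptger4* between E2 and 4OHT was 1.31, with an adjusted p of 0.145 without the block. With the block its adjusted p was 0.000167 and the 95% interval 1.10 to 1.52. It was called in all 7 fits with the block, in 1 of 9 fits that left out a single sample, the one without DMSO sample 1, where its adjusted p was 0.0392, and without all samples numbered 1 (log2 fold change 1.24, adjusted p 0.0107). Between 4OHT and DMSO the log2 fold change was -0.31 with an adjusted p of 1.00, and 0.295 with the block, where the 95% interval ran from -0.53 to -0.10. The ratios 4OHT over DMSO were 0.624, 0.970 and 0.796 for numbers 1, 2 and 3, all below 1. The size of this difference depended on which samples were compared. Without DMSO sample 1 the log2 fold change was -0.02. Without all samples numbered 1 it was -0.16, and without all samples numbered 2, with the block, it was -0.45. The contrasts share samples and are not independent of each other.

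**Figure D2:**
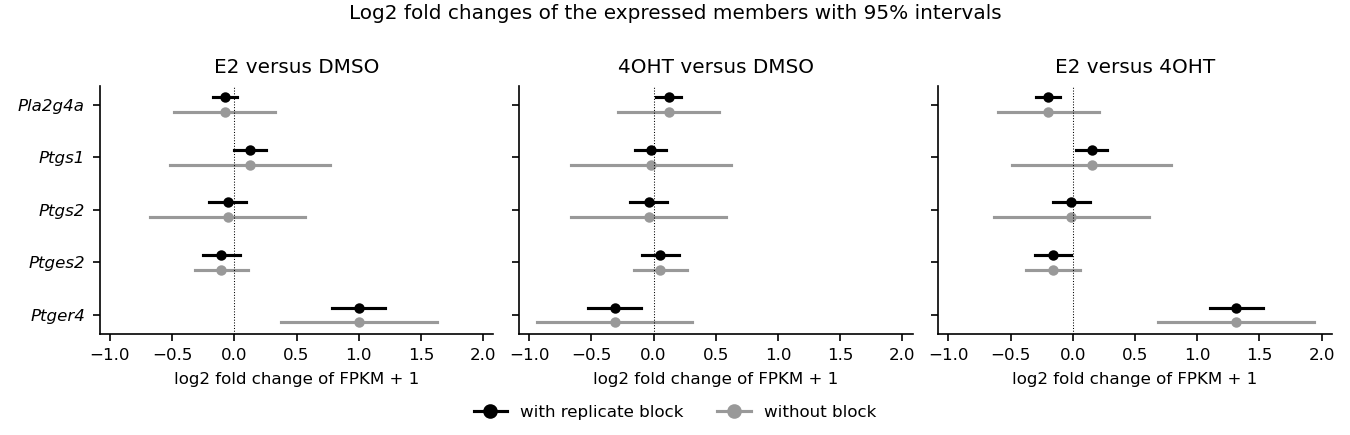
Log2 fold changes on the scale of log2(FPKM + 1) (horizontal axis) of the 5 expressed members in the 3 contrasts. Points are estimates and lines 95% intervals, in black with the replicate number as a block and in grey without it. The intervals are per gene and not adjusted for the number of rows tested, so that an interval clear of 0 is not a call. For *Ptger4* the intervals of E2 versus DMSO and E2 versus 4OHT lie above 0 in both fits, and the intervals of the cyclooxygenases in E2 versus DMSO include 0 in both.

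The cyclooxygenases differed more between replicate numbers than between conditions. *Ptgs1* encodes COX-1, usually described as the constitutive form, and lies at chr2:36230426-36252272 on the plus strand. Its FPKM in samples 1, 2 and 3 were 133, 70.6 and 86.9 in DMSO, 132, 86.4 and 93.5 with E2, and 127, 71.1 and 86.0 with 4OHT. Sample 1 was the highest and sample 2 the lowest in every condition, and the ranges of the conditions overlapped. The log2 fold change between E2 and DMSO was 0.13 with an adjusted p of 0.895, and 0.148 with the block, where the 95% interval ran from -0.00 to 0.25. Between E2 and 4OHT it was 0.15 with an adjusted p of 0.0841 with the block, and between 4OHT and DMSO it was -0.02 with an interval of -0.15 to 0.10.

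*Ptgs2* encodes COX-2, the form induced by cytokines, growth factors and ovulatory signals, and lies at chr1:150100031-150108227 on the plus strand. In samples 1, 2 and 3 its FPKM were 2.99, 5.62 and 5.26 in DMSO, 2.70, 5.74 and 4.95 with E2, and 3.24, 5.43 and 4.58 with 4OHT. Here sample 1 was the lowest and sample 2 the highest in every condition, the opposite order to that of *Ptgs1*. The log2 fold changes were -0.05 between E2 and DMSO, -0.04 between 4OHT and DMSO and -0.01 between E2 and 4OHT. With the block their adjusted p-values were 0.607, 0.774 and 0.904. The 95% interval of E2 versus DMSO with the block was -0.20 to 0.10.

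The FPKM ratio of *Ptgs1* to *Ptgs2* gathered these differences. It was 44.7, 49.0 and 39.3 in the samples numbered 1 of DMSO, E2 and 4OHT. The samples numbered 2 had 12.6, 15.1 and 13.1, and those numbered 3 had 16.5, 18.9 and 18.8. COX-1 transcripts were thus in excess of COX-2 transcripts per length in all 9 samples, and every sample numbered 1 had a higher ratio than every other sample. The samples numbered 1 also had the highest level of *Esr1* within each condition, with 12.4, 5.979 and 5.995 FPKM in DMSO samples 1, 2 and 3. What the replicate numbers stand for is not given in the labels, and its part in these differences was not tested.

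**Figure D3:**
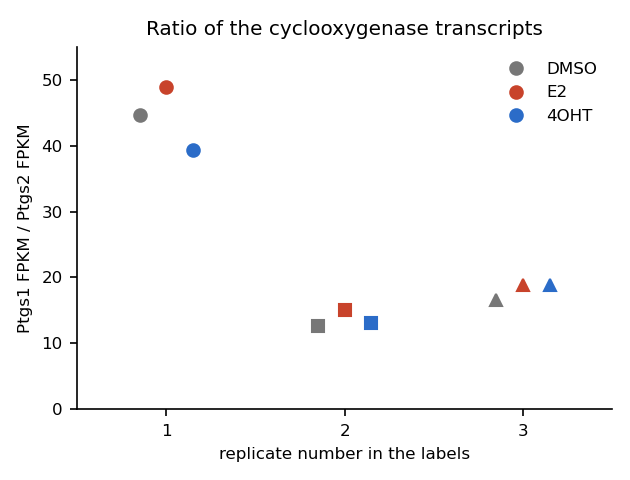
Ratio of *Ptgs1* FPKM to *Ptgs2* FPKM (vertical axis, from 0) by replicate number (horizontal axis). Each point is 1 of 9 samples, coloured by condition. The samples numbered 1 lie between 39.3 and 49.0, and all others between 12.6 and 18.9.

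The promoter windows of both cyclooxygenase genes are shown because the genes encode enzymes of the same step and moved in opposite order over the replicate numbers. They are from RefSeq (GRCm38.p6), chr2:36230176-36230475 for *Ptgs1* and chr1:150099781-150100080 for *Ptgs2*, both on the plus strand, with matches to the 7 motifs searched in capitals.
*Ptgs1*: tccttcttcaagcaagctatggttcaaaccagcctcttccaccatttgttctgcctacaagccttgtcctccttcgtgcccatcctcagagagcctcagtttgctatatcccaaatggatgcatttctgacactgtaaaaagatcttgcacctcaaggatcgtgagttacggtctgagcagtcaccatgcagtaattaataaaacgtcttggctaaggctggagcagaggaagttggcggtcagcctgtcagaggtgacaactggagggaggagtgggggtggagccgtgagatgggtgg
*Ptgs2*: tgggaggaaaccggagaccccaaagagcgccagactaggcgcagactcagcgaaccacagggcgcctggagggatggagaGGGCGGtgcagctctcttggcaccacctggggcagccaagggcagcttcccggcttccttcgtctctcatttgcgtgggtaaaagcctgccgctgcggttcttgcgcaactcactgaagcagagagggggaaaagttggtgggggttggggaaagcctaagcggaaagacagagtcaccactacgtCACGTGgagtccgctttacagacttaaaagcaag
The *Ptgs1* window, with a GC content of 50.7%, held no match. The *Ptgs2* window, with 59.3%, held a GC box GGGCGG at 170 bases before the annotated start and an E-box CACGTG at 16 bases after it. Whether transcription begins at the annotated start in these cells was not examined. Of the 10 members, 9 had a RefSeq window, and *Pla2g4a* had more than 1. No window of a member held the estrogen response element as searched.

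*Pla2g4a* encodes cytosolic phospholipase A2α, which frees arachidonic acid in response to calcium. It lies at chr1:149829618-149961290 on the minus strand. In samples 1, 2 and 3 it had 9.35, 13.8 and 13.5 FPKM in DMSO, 9.08, 12.6 and 12.8 FPKM with E2, and 11.02, 14.7 and 14.1 FPKM with 4OHT. Sample 1 was the lowest in each condition, and within each number E2 was the lowest and 4OHT the highest, although the ranges of the conditions overlapped. E2 over 4OHT was 0.824, 0.860 and 0.904 within the numbers. The log2 fold change between E2 and 4OHT was -0.20, with an adjusted p of 0.637 without the block. With the block its adjusted p was 0.0166 and the 95% interval -0.29 to -0.10. It was called in 4 of 7 fits with the block and was not called when the samples of any 1 number were left out, with adjusted p-values of up to 0.0874. Against DMSO the log2 fold changes were -0.08 with E2 (adjusted p 0.235 with the block) and 0.12 with 4OHT (adjusted p 0.320 with the block).

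*Ptges2* encodes membrane-associated prostaglandin E synthase 2, and lies at chr2:32395896-32405772 on the plus strand. In samples 1, 2 and 3 it had 18.4, 21.1 and 19.8 FPKM in DMSO, 18.2, 18.6 and 18.1 FPKM with E2, and 19.6, 24.0 and 18.4 FPKM with 4OHT. It varied least of the 5 expressed members, with an SD of 0.13 on the log2 scale over the 9 samples, against 0.69 for *Ptger4*. The log2 fold change between E2 and DMSO was -0.10 (adjusted p 0.713, and 0.286 with the block), and between E2 and 4OHT it was -0.16 (adjusted p 0.107 with the block).

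Between E2 and 4OHT, 0 of the 5 members were called without the block, beside 0.327% of all rows, and 1 had an unadjusted p under 0.05, beside 11.7% of all rows (limma). With the block, 2 of 5 were called, *Ptger4* higher and *Pla2g4a* lower with E2, beside 21.5% of all rows, 10.7% higher and 10.8% lower, and 4 of 5 had an unadjusted p under 0.05, beside 38.9% of all rows. Between 4OHT and DMSO 0 of 5 were called in either fit (limma), where 0% of all rows were called without the block and 0.141% with it. The numbers of members with an unadjusted p under 0.05 in this contrast were 0 without the block, beside 2.65% of all rows, and 2 with it, beside 13.8%.

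The remaining genes of the pathway were read from lists by role. Among the other prostanoid synthases, 5 of 10 genes were tested, and with the block 1 was called higher with E2 and 0 lower. This is 20% of the genes tested, near the 18.6% of all rows. The highest levels were those of *Ptges3*, the cytosolic prostaglandin E synthase also known as the p23 co-chaperone, with means of 267, 267 and 281 FPKM in DMSO, E2 and 4OHT, and of *Akr1b3*, an aldo-keto reductase with prostaglandin F synthase activity, with 185, 181 and 193 FPKM. The call was *Hpgds*, the hematopoietic prostaglandin D synthase. It had 3.33, 0.320 and 0.107 FPKM in DMSO samples 1, 2 and 3, 8.28, 2.48 and 1.38 FPKM with E2, and 1.63, 0.185 and 0.130 FPKM with 4OHT. E2 was the highest within each number, and the ranges of DMSO and E2 overlapped because of DMSO sample 1. The log2 fold change between E2 and DMSO was 1.20 with an adjusted p of 0.553, and 0.00134 with the block. The gene passed the filter through the 3 E2 samples and the samples numbered 1 of the other conditions. Of the immune markers 3 of 7 had a mean of at least 1 FPKM, and the sums of the list were 8.81 to 14.6 FPKM in DMSO, 11.6 to 20.5 FPKM with E2 and 7.64 to 12.0 FPKM with 4OHT. *Kit*, which stem and mast cells carry, had means of 2.80 FPKM in DMSO and 6.73 FPKM with E2, whereas the means of *Cd68* were 3.98 and 3.72 FPKM and those of *Csf1r* 4.60 and 4.46 FPKM, so that the higher sums with E2 came from *Kit*. *Cpa3* and *Cd3e*, which define mast cells and T cells, were listed at 0 in every sample.

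Among the other prostanoid receptors only *Ptger1*, in 2 rows, was tested, and none of these rows was called. Its rows ranged from 18.1 to 21.0 FPKM and from 33.5 to 48.1 FPKM. These rows carry the same symbol and differ in level, so that the level of *Ptger1* is uncertain. Of the other 5 genes, which were not tested, *Tbxa2r*, the thromboxane receptor, was at 0.177 to 0.396 FPKM in the 9 samples.

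In the list of transport and breakdown all 5 genes were tested, and with the block 1 was called higher and 1 lower with E2, beside 18.6% of all rows called in either direction. *Slco2a1*, the prostaglandin transporter that carries prostaglandins into the cell, had the highest level, with 319, 316 and 323 FPKM, and was not called (log2 fold change -0.02 between E2 and DMSO, adjusted p 0.772 with the block). *Ptgr1*, a prostaglandin reductase, had 37.0, 38.0 and 40.2 FPKM. *Cbr3*, a carbonyl reductase, was lower with E2, at -0.23 on the log2 scale against DMSO (adjusted p 0.0188 with the block) and -0.34 against 4OHT (0.00414 with the block). *Ptgr2*, a prostaglandin reductase of 15-keto products, was higher, at 0.13 (adjusted p 0.0453 with the block). No gene of these lists was called between E2 and DMSO without the block.

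**Figure D4:**
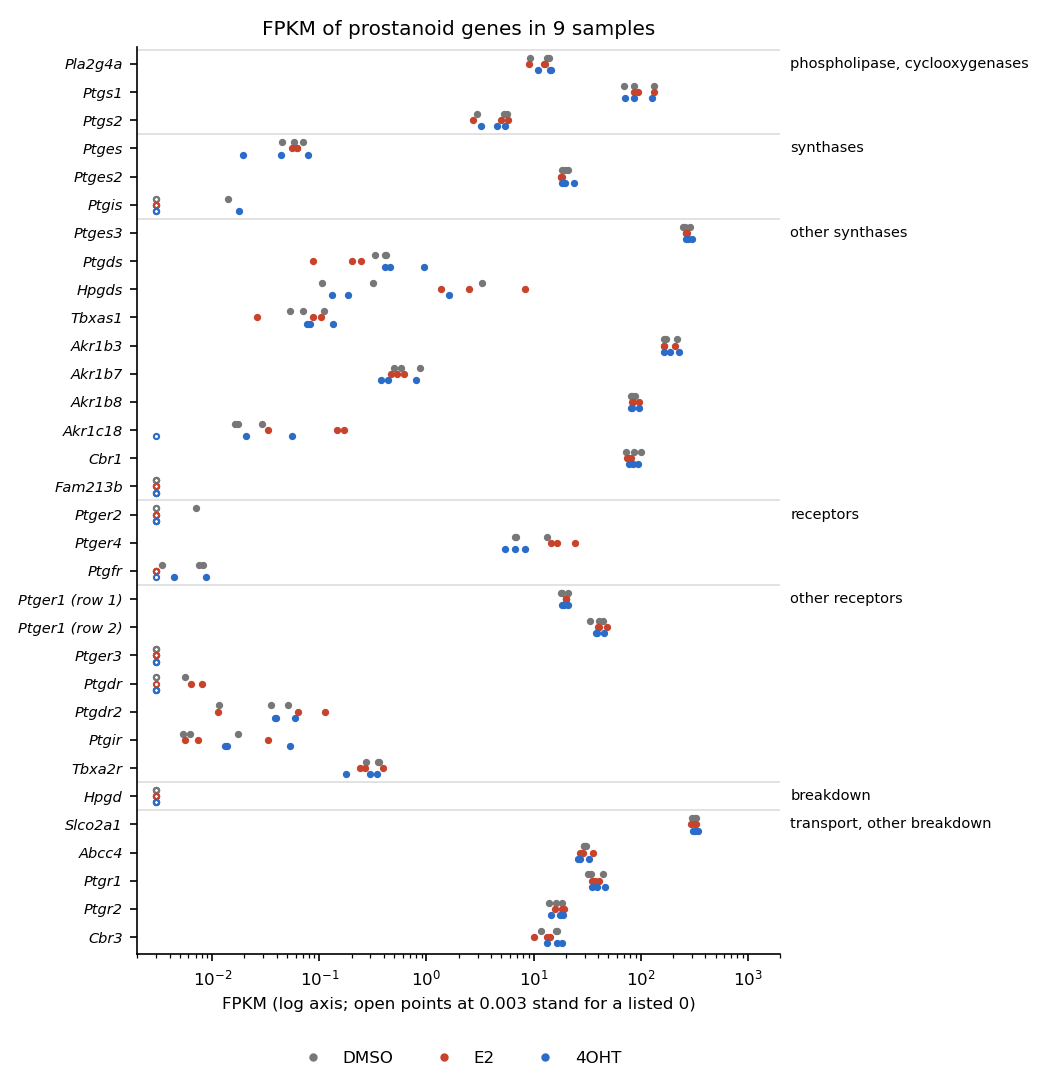
FPKM on a log axis of the members and of the other prostanoid synthases, receptors, transport and breakdown genes, with 1 line per gene row. Each filled point is a sample, coloured by condition, and open points stand for a listed 0. *Slco2a1*, *Ptges3* and *Akr1b3* lie above 100 FPKM, while *Hpgd* is listed at 0 in all 9 samples.

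Supply of arachidonic acid was covered by 2 lists. Of the other phospholipases A2 and their regulators, 9 of 23 genes were tested, with 1 called higher and 1 lower between E2 and DMSO with the block, 22.2% of those tested beside 18.6% of all rows. *Anxa1*, whose product annexin A1 inhibits phospholipase A2, had 0.13 on the log2 scale (adjusted p 0.0366), and *Pla2g15*, a lysosomal phospholipase, had -0.21 (adjusted p 0.0296). The calcium-independent *Pla2g6* had 32.6, 30.4 and 31.8 FPKM in DMSO, E2 and 4OHT and was not called. Of the genes of arachidonate supply and reacylation, 6 of 8 were tested, and with the block 2 were called higher with E2 and 0 lower. This is 33.3% of those tested, beside 18.6% of all rows, or 12.1% in the higher direction. *Mgll*, monoacylglycerol lipase, had 14.1, 5.996 and 7.03 FPKM in DMSO and 15.8, 9.84 and 11.04 FPKM with E2, with 0.45 on the log2 scale (adjusted p 0.639, and 0.00967 with the block). *Acsl4*, an acyl-CoA synthetase that prefers arachidonic acid, had 33.1, 31.6 and 32.5 FPKM in DMSO and 39.9, 38.4 and 37.6 FPKM with E2, with ranges that did not overlap. Its log2 fold change was 0.25 (adjusted p 0.0776, and 0.00422 with the block). *Lpcat3*, which returns arachidonic acid to phospholipids, had an adjusted p of 0.0539 with the block. The median log2 fold change of the 6 tested genes was 0.10, against -0.00 over all rows.

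Few genes of the other branches of arachidonic acid metabolism reached the filter. Of 14 lipoxygenase and leukotriene genes only *Lta4h*, leukotriene A4 hydrolase, was tested, and it was called lower with E2 than with 4OHT with the block (log2 fold change -0.15, adjusted p 0.0364). *Ltc4s*, leukotriene C4 synthase, was not tested and ranged from a listed 0 to 0.971 FPKM. In the epoxide list only *Ephx1*, microsomal epoxide hydrolase, was tested among 7 genes, at 0.14 on the log2 scale for E2 against DMSO (adjusted p 0.0191 with the block). *Ephx2*, soluble epoxide hydrolase, reached 1 FPKM in 2 samples and was not tested. It had 0.754, 0.100 and 0.0463 FPKM in DMSO samples 1, 2 and 3, 2.59, 0.782 and 0.470 FPKM with E2, and 1.32, 0.351 and 0.0882 FPKM with 4OHT. E2 was the highest within each number, and the ranges of DMSO and E2 overlapped.

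Downstream of the receptors, 18 of 21 genes of cAMP and Gq coupling were tested. With the block 4 were called higher and 0 lower between E2 and DMSO, 22.2% of those tested beside 18.6% of all rows, or 12.1% in the higher direction. *Pde4b*, a cAMP phosphodiesterase, had 4.10, 2.52 and 2.43 FPKM in DMSO and 6.74, 4.12 and 4.08 FPKM with E2, with 0.57 on the log2 scale (adjusted p 0.362, and 0.00333 with the block). *Crem*, a cAMP-responsive transcription factor gene, had 0.36 (adjusted p 0.0154 with the block), *Plcb3*, a phospholipase C, 0.19 (0.0114) and *Gnaq*, the Gq subunit α, 0.17 (0.0122). *Gnas*, which encodes the Gs subunit that EP4 couples to, had 939, 976 and 1007 FPKM and was not called (adjusted p 0.374 with the block). *Prkar1a*, a regulatory subunit of protein kinase A, had 103, 109 and 105 FPKM and was not called (adjusted p 0.148 with the block). Between E2 and 4OHT 5 genes were called higher and 0 lower with the block. This is 27.8% of those tested, beside 21.5% of all rows, or 10.7% in the higher direction. The additional one was *Pde4d*, also a cAMP phosphodiesterase (log2 fold change 0.27, adjusted p 0.0309). *Pde4d* passed the filter through the 3 E2 samples and DMSO sample 1, with all 4OHT samples below 1 FPKM. Its call is therefore not independent of the filter. Among the nuclear receptors that bind prostanoid-like lipids, *Pparg* was lower with E2 than with 4OHT with the block (log2 fold change -0.16, adjusted p 0.0250), and 0 of 2 tested genes were called between E2 and DMSO. *Ppard*, the other gene tested, had 7.77, 7.39 and 7.89 FPKM. Between 4OHT and DMSO none of the tested genes in these pathway lists was called, with or without the block.

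The genes whose profile over the 9 samples was closest to that of *Ptger4*, by the root mean square difference of centred log2(FPKM + 1) among 11094 rows without an exact 0, were *Trim2* (0.137), *E330013P04Rik* (0.154) and *Samd5* (0.162). *Trim2* had 14.3, 5.66 and 6.25 FPKM in DMSO, 22.3, 15.1 and 13.0 FPKM with E2, and 9.56, 5.35 and 5.25 FPKM with 4OHT. For *Ptgs1* they were *Dag1* (0.0499), *Cish* (0.0538) and *Epb4.1l5* (0.0650). *Dag1* had 202, 98.8 and 126 FPKM in DMSO and 196, 117 and 142 FPKM with E2, with sample 1 again the highest. The samples share libraries and replicate numbers, and these distances are descriptions.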

How the data were processed

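RNA of 9 samples was sequenced as directional 50 bp single-end libraries. The authors aligned trimmed reads to mm10 with TopHat2 2.0.8b and deposited FPKM of known genes from Cufflinks and its cuffdiff routine (Cuffdiff 2.1.1). Depth was only approximated. Whether a scaling between libraries entered the FPKM is not given in the sources used here.

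Groups and replicate numbers came from the labels. limma 3.58.1 (R 4.3.3) was fitted to log2(FPKM + 1) of all 9 samples, with a trend, over the 11339 rows that reached 1 FPKM in 3 or more samples. Fold changes of low genes are understated on this scale. An exact 0 in a row with a nonzero median of at least 5 FPKM was left out as missing (516 zeros in 217 rows), and 11325 to 11328 rows remained per contrast. Adjusted p-values under 0.05 (Benjamini-Hochberg) were called. The replicate number as a block was the paired fit. Over 11122 rows without a missing value all 9 same-number pairs of samples deviated together from their condition means, with correlations of 0.454 to 0.801. Over all 11339 rows with zeros as values they were 0.0527 to 0.293, and 5 of 9 exceeded 0.1.

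The members and lists were chosen with earlier results of these data known. Genes named were all members, from each list up to 4 called genes with the largest changes and the 2 with the highest mean, the estrogen response genes, markers, and the 3 rows closest in profile to the 2 most variable members. *Plcb3* was added after its values were seen. Alternatives were another pseudocount (0.1), no filter, upper quartile scaling, equal totals, other treatment of zeros, 6 samples and samples left out. Leaving out whole replicate numbers and the block with other scalings were added after the data were examined. The fit was tested on simulated data, made from rows without an exact 0. A deviation shared by samples of the same number was built into them. That test therefore does not bear on what the replicate numbers stand for. An item withheld from this text is not reported here.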

Additional observations from a re-analysis of the deposited data

How the results depend on the processing

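Without the block no member was called under another pseudocount, filter, scaling or treatment of zeros. Rows called between E2 and DMSO were 66, and 37 without a filter, 39 with equal totals, 14 with 6 samples, 13 to 87 without single samples and 181 without replicate 1. With the replicate block they were 2105, and 1702 with zeros kept, 1351, 1077 and 647 without replicate 1, 2 or 3, 2437 with upper quartile scaling and 2449 with equal totals. Between E2 and 4OHT they were 37, and 9 without a filter, 13 with 6 samples, 18 with zeros kept, 0 to 56 without single samples and 94 without replicate 1. With the block they were 2435, and 1840 with zeros kept, 992, 922 and 871 without replicate 1, 2 or 3, 2630 with upper quartile scaling and 2471 with equal totals. Between 4OHT and DMSO they were 0, also without single samples, and 16 with the block, 12, 11 and 3 without replicate 1, 2 or 3, 13 with upper quartile scaling, 9 with equal totals and 0 with zeros kept. The causes were not tested. The single samples with the lowest and highest counts between E2 and DMSO were E2 sample 2 (13) and DMSO sample 1 (87).

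Members called between E2 and DMSO were 1, *Ptger4*, in every fit with the block and without replicate 1, and 0 without single samples. Between E2 and 4OHT they were 2 with the block, also with zeros kept, upper quartile scaling or equal totals, 1 with the block without replicate 1, 2 or 3 and 1 without replicate 1, and 0 to 1 without single samples (1 without DMSO sample 1).

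Small changes that were not called turned sign. For *Ptges2* between 4OHT and DMSO the log2 fold change of 0.05 became -0.0025 with equal totals, with or without the block, and -0.0056 with the block without replicate 2. For *Ptgs2* between E2 and 4OHT, -0.01 became 0.0172 with equal totals, with or without the block, and 0.0797 without replicate 1, with or without the block, and between 4OHT and DMSO -0.04 became 0.0234 with the block without replicate 3. Without single samples the ranges between E2 and DMSO were -0.25 to 0.0704 for *Pla2g4a*, -0.0755 to 0.38 for *Ptgs1* and -0.28 to 0.21 for *Ptgs2*. Between 4OHT and DMSO they were -0.0475 to 0.24 for *Pla2g4a*, -0.26 to 0.23 for *Ptgs1*, -0.27 to 0.13 for *Ptgs2* and -0.0522 to 0.13 for *Ptges2*, and between E2 and 4OHT -0.0339 to 0.38 for *Ptgs1* and -0.19 to 0.25 for *Ptgs2*. *Ptger4* kept its direction in all 24 alternatives of each contrast.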
